A study of Rattus norvegicus with 22 samples.

Results

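The comparison described here is PBBI against sham in the cortex of the hemisphere contralateral to the injury. It holds the 11 samples whose labels give the contralateral hemisphere, 6 from rats with PBBI and 5 from sham rats, out of 22 samples from both hemispheres of the same 11 rats. PBBI (penetrating ballistic brain injury) is a rat model of a projectile wound, in which a probe enters the right frontal cortex and a balloon on its tip is inflated for a moment. All rats were adult male Sprague-Daley rats (spelled as in the labels), and all had EEG and EMG electrodes implanted before the injury, with a recovery period that the labels and the methods of the study give differently. Sham rats had the craniectomy and the anesthesia with no probe inserted, so the left hemisphere was not entered by a probe in either group. Cortex was taken 24 h after surgery, and no group carried a transgene or a drug treatment.

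After focal brain injury, astrocytes and microglia around the wound become reactive. Reactive astrocytes make more of the intermediate filaments GFAP and vimentin, microglia make more complement, Fc receptor and scavenger receptor transcripts, and both cell types can divide. The opposite hemisphere is joined to the injured one by the corpus callosum and shares its blood and cerebrospinal fluid, and it is often measured beside the injured side to ask how far such a response reaches.

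Total counts per contralateral library ran from 55912129 to 62939241 for PBBI rats and from 48658467 to 61682289 for sham rats. Levels are given as CPM (counts scaled to the library total after TMM normalization), which are not corrected for gene length and are compared here between rats and not between genes. The first principal component held 41.4% of the variance, with PBBI rat 85 and sham rats 86 and 94 at one end and sham rat 91 at the other. The ratio of summed CPM of long to short genes was 0.50 to 0.54 in the first 3 of these, 1.24 in rat 91, and 0.66 to 0.92 in the other 7 rats. The summed level of 15 cortical neuron genes was at least 2340 CPM in each library. This sum was not set against another tissue, so it does not verify the dissection. Genes of the striatum and the choroid plexus differed between libraries, as given below. With the ratio of long to short genes as a covariate, an alternative chosen after the data were seen, 0 genes passed the adjusted threshold and 543 had an unadjusted p under 0.05.

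No gene passed an adjusted p of 0.05 in the contralateral cortex (0.00% of 15907 genes tested, edgeR quasi-likelihood test, smallest adjusted p 0.967), whereas 753 of 16104 genes (4.68%) passed in the ipsilateral cortex of the same rats. The study used another test, DESeq2, and called more genes than this on the injured side. It likewise reports no significant contralateral difference. At an unadjusted p under 0.05 there were 366 contralateral genes (2.30%), of which 204 (1.28%) were higher and 162 (1.02%) lower in PBBI. The number was 824 without PBBI rat 85 and 1043 without sham rat 91, with 0 genes past the adjusted threshold in either case. In 16 genes (0.101%) each PBBI rat lay above each sham rat, and in 7 (0.0440%) each lay below. The rats can be divided in 462 ways, so chance alone gives each of these orders in 1 gene in 462. Both shares found were smaller than 1 in 462. The 2.30% of genes was likewise under the proportion of 0.05 that chance gives at that p. A lack of overlap reported below therefore does not by itself set a gene apart from chance. The precision differed between genes. The 95% interval of the log2 fold change lay within 1 in either direction for 11669 genes (73.4%) and within 0.5 for 3295 (20.7%), and its median half-width was 0.55. A gene that missed the threshold was therefore not shown to be equal in the groups. Since no gene passed, higher and lower below describe the estimated difference, and the unadjusted p is given with these shares as the background.

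A name could be given to 1582 of the genes tested, mostly genes that the study called on the injured side of these rats. Of the named genes 116 were higher and 42 lower at an unadjusted p under 0.05, with a median log2 fold change of 0.12, and of the 14325 genes without a name 88 were higher and 120 lower, with a median of -0.02. The named lists below are thus not an even sample of the genome, and their direction is not independent of the injured side. The background for each list is the named genes, of which 1015 were higher and 567 lower. This background also holds genes that the study called lower on the injured side, and it was not split by direction there. It is therefore not a like background for a list whose members mostly lie on one side there. For such a list, the share of higher or lower genes cannot separate a contralateral difference from the way the genes were named.

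The list with the highest median was that of reactive astrocyte genes. All 10 tested members of the pan-reactive astrocyte list were higher in PBBI, and 9 had an unadjusted p under 0.05. All 10 were also higher on the injured side, so the named genes are not a like background for their direction. Of all genes tested 48.8% were higher, but the lists hold only genes with a name, and of the 1582 named genes tested 1015 were higher, 116 of them at an unadjusted p under 0.05, while 42 were lower at that p. The median log2 fold change of the 10 astrocyte genes was 1.22, against 0.12 for the named genes and -0.01 for all genes tested. The summed level of the list was 628 to 4789 CPM in PBBI and 550.2 to 1289 CPM in sham, so the groups overlapped. Most of this sum was Gfap in each rat, so it mainly gives the level of that gene. In bulk tissue, more cells of a type and more RNA per cell cannot be told apart.

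Gfap, which encodes the intermediate filament that marks astrocytes, was at 4147 CPM in PBBI rat 81, 3083 in rat 88, 1929 in rat 90, 1766 in rat 96, 1169 in rat 83 and 499 in rat 85. In sham rats it was at 453 to 1129 CPM, with a median of 710.1. Rats 81 and 88 stood well above the rest, and rat 85 lay within the sham range. The log2 fold change was 1.57 (95% interval 0.62 to 2.53), with an adjusted p of 1 in edgeR. The exact permutation p, two-sided and from all 462 ways to divide the 11 rats, was 0.0325. On the injured side the log2 fold change was 2.99. Rat 81 had a higher Gfap CPM contralaterally than ipsilaterally, where it was at 3195 CPM, while rats 88, 90 and 96 were at 6225 to 6881 CPM ipsilaterally. The hemispheres were scaled in separate fits, so these levels are not on a common scale.

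Vim, another intermediate filament gene, was at 309.5 CPM in rat 81 and 261 in rat 88, and at 74.0 to 113 in the other 4 PBBI rats, against 62.7 to 97.0 in sham. The difference in Vim thus lay mostly in those 2 rats (log2 fold change 0.95, interval 0.13 to 1.77). Aspg, an asparaginase gene used as a marker of reactive astrocytes, was the member of the list whose groups did not overlap. It was at 8.29 CPM in PBBI rat 81, 5.47 in rat 88, 2.97 in rat 83, 2.92 in rat 90, 2.85 in rat 85 and 2.32 in rat 96, against 0.810 to 2.23 in sham rats, with a log2 fold change of 1.497 (0.66 to 2.33). On the injured side its log2 fold change was 4.01.

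Timp1, a secreted inhibitor of metalloproteinases, was at 68.0 CPM in PBBI rat 81, 20.4 in rat 88, 14.99 in rat 90, 13.3 in rat 83, 7.16 in rat 96 and 5.61 in rat 85, against 3.04 to 7.66 in sham. Its log2 fold change was 2.19 (0.94 to 3.43), with an exact permutation p of 0.0173, and it was 1.37 without rat 81. Hspb1, a small heat shock protein, was at 99.0 CPM in rat 81 and 36.8 in rat 88, and at 2.17 to 8.51 in the other PBBI rats, against 1.41 to 4.42 in sham. The log2 fold change of Hspb1 was 3.05 (1.13 to 4.98), with an exact permutation p of 0.0844, and 1.87 without rat 81. Both estimates were larger on the injured side, at 5.37 and 6.77.

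Of the remaining members, S1pr3, a receptor for sphingosine 1-phosphate, was at 34.5 CPM in rat 81 and 24.4 in rat 88 and at 4.40 to 8.04 in the other PBBI rats, against 5.13 to 7.26 in sham (log2 fold change 1.27, interval 0.17 to 2.37). Cd44, a hyaluronan receptor, was at 10.4 to 31.0 CPM in PBBI with a median of 21.8, against 7.28 to 18.8 in sham with a median of 11.5. Osmr, a receptor subunit for oncostatin M, was at 0.550 to 3.09 CPM against 0.594 to 1.14, with 4 PBBI rats above the sham range and rat 85 below it. Cp, the copper oxidase ceruloplasmin, was at 86.2 CPM in rat 81 and 16.5 to 34.7 in the others, against 13.8 to 24.6 in sham. Lcn2, an iron-scavenging lipocalin, was the member that missed the unadjusted threshold, at 0.984 to 6.34 CPM against 0.776 to 8.26 (log2 fold change 0.26, interval -1.11 to 1.62). The number of members at an unadjusted p under 0.05 was 5 without PBBI rat 81, 3 with the replicate block and 4 with rats 81, 82 and 83 all left out. The contralateral titles of rats 81 and 82 hold PFC where the others hold CC, and that of rat 83 holds CC with a further suffix, so these rats were also left out together. The replicate block is a fit over both hemispheres in which the rat is a random block. The list median was 0.83 without rat 81.

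**Figure D1:**
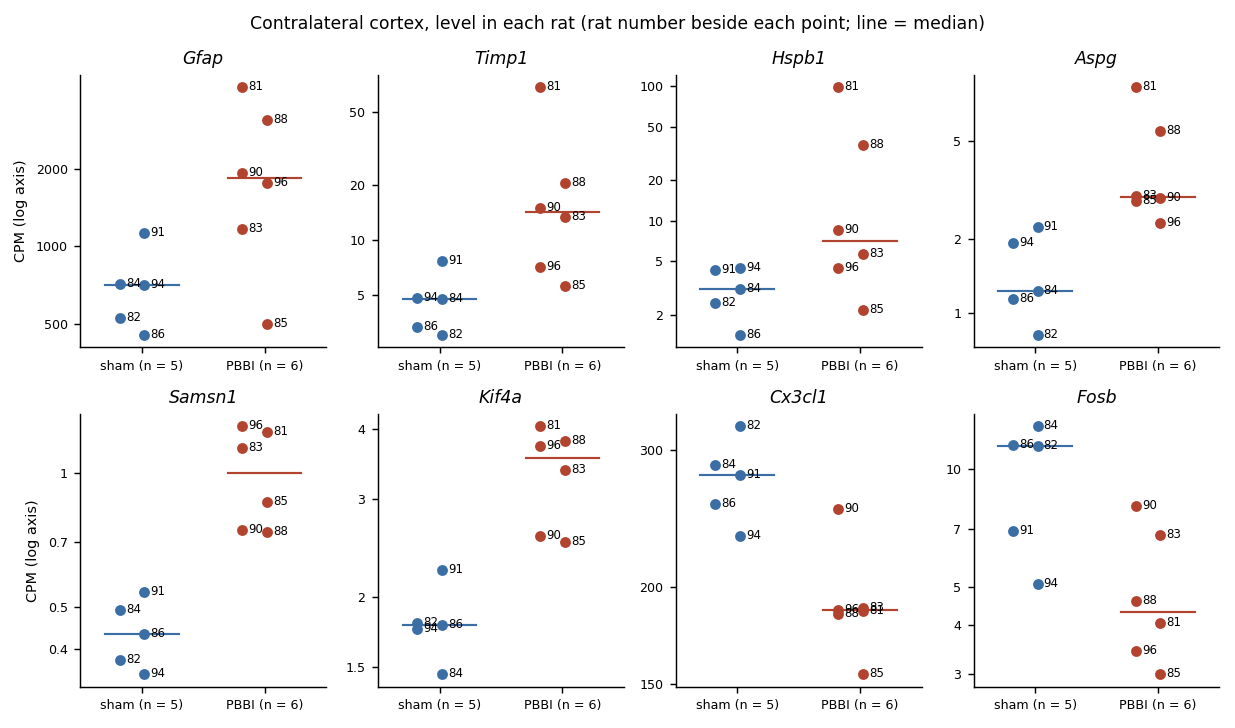
Level (CPM, log axis) of 8 genes in the contralateral cortex of each rat, sham (n = 5) against PBBI (n = 6), with the rat number beside each point and the median as a line. Rats 81 and 88 are the highest for Gfap, Timp1, Hspb1 and Aspg, rat 85 lies within the sham range for Gfap, Timp1 and Hspb1, and the groups do not overlap for Aspg, Samsn1 and Kif4a.

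Genes typical of astrocytes at rest had smaller estimates. Of 15 tested homeostatic astrocyte genes, 10 were higher in PBBI, against 1015 of 1582 named genes. Of the 15, 1 was higher at an unadjusted p under 0.05, against 116 of the 1582. The list median log2 fold change was 0.08. The summed level of the list was 7382 to 9637 CPM in PBBI and 7660 to 8862 CPM in sham. Sparcl1, a secreted matrix protein of astrocytes, was at 1928 to 2615 CPM against 1799 to 3015 (log2 fold change 0.04, interval -0.36 to 0.43). Slc14a1, a urea transporter, was the member with the smallest p. It was at 104 to 122 CPM in 5 PBBI rats and 65.0 in rat 85, against 56.1 to 88.9 in sham (log2 fold change 0.53, interval 0.12 to 0.93), so the 5 rats lay above the sham range.

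The sequence upstream of the start site is shown for 4 reactive astrocyte genes, since this was the list with the highest median. Each line holds the 250 bases before the RefSeq start of the gene in build GRCr8, 5′ to 3′ on the strand of the gene. They come from chr10:88361662-88361911 (minus strand) for Gfap, chr12:26432302-26432551 (minus strand) for Hspb1, chr6:136997773-136998022 (plus strand) for Aspg and chr2:57688562-57688811 (minus strand) for Osmr. Capitals mark matches to the heat shock element GAANNTTC in Hspb1 and to the AP-1 motif TGANTCA in Aspg and Osmr, and the Gfap window held no match to these or to the STAT motif TTCNNNGAA.
Gfap: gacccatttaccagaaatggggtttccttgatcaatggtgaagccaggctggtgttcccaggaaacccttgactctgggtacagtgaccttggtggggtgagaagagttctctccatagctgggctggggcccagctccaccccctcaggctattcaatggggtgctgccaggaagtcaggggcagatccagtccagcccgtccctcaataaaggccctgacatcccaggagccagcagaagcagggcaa
Hspb1: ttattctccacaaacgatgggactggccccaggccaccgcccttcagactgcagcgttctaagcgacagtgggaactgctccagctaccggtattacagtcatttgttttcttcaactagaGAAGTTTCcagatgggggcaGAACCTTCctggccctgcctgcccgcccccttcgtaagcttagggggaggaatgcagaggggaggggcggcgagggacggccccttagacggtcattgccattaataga
Aspg: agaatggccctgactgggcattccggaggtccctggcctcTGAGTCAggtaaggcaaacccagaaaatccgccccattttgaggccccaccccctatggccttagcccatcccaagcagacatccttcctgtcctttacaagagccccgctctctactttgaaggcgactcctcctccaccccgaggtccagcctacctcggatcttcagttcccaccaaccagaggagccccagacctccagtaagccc
Osmr: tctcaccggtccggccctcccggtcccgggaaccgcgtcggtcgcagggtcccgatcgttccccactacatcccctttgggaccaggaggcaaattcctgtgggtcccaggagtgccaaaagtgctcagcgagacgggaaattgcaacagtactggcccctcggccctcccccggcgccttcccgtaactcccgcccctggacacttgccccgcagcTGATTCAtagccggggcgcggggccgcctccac

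All 10 members of the list matched a RefSeq promoter by symbol. Searched on both strands, the heat shock element was in 1 of them (Hspb1, at 2 positions) and in 7.02% of 27457 promoters of the same length. The AP-1 motif was in 2, Aspg and Osmr, and in 6.36% of all promoters. The STAT motif was in 0 of the 10 and in 7.52% of all, which says only that these letters are not in this window. Over all lists, 253 of 341 named members matched a promoter.

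Genes of cell division were next by median. Of 43 tested mitosis genes, 42 were higher in PBBI, against 1015 of 1582 named genes. On the injured side every mitosis gene had a positive log2 fold change, from 0.92 (Incenp) to 4.25 (Mki67). The named genes lay on both sides there, so the count of 42 does not by itself set this list apart. Of the 43, 13 were higher at an unadjusted p under 0.05, against 116 of the 1582. The list median log2 fold change was 0.69. The summed level was 191 CPM in PBBI rat 81, 138 in rat 88, 95.4 in rat 83, 74.6 in rat 96, 65.3 in rat 85 and 65.0 in rat 90, against 65.1 to 73.3 in sham. Rats 81, 88 and 83 were thus above the sham range, rat 96 just above it, and rats 85 and 90 at its lower edge. Kif4a, a motor that binds chromosomes, was the mitosis gene for which all 6 PBBI rats lay above all sham rats. It was at 4.05 CPM in PBBI rat 81, 3.81 in rat 88, 3.73 in rat 96, 3.39 in rat 83, 2.58 in rat 90 and 2.51 in rat 85, against 1.46 to 2.23 in sham (log2 fold change 0.89, interval 0.41 to 1.37), and the estimate stayed between 0.83 and 0.99 when any 1 rat was left out. On the injured side it was 1.38.

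Bub1b, a kinase of the spindle checkpoint, was at 0.441 to 3.01 CPM in PBBI and 0.234 to 0.492 in sham (log2 fold change 1.75, interval 0.60 to 2.89), with 5 of 6 PBBI rats above the sham range. Ccna2, cyclin A2, was at 0.631 to 4.56 CPM against 0.445 to 0.722 (1.66, interval 0.55 to 2.78), and Cdk1, the kinase that drives entry into mitosis, at 0.984 to 5.72 against 0.983 to 1.67 (1.18, interval 0.26 to 2.10). In both genes 4 of 6 PBBI rats lay above the sham range. Top2a, topoisomerase II, was at 1.14 to 13.8 CPM against 1.45 to 2.41 (1.38, interval 0.13 to 2.62). Mki67, the gene of the Ki-67 proliferation antigen, was at 0.310 to 9.12 CPM with a median of 1.07, against 0.0936 to 1.14 with a median of 1.08, and its interval (-0.05 to 3.56) included 0. Incenp, a scaffold of the chromosomal passenger complex, was at 5.78 to 11.7 CPM against 3.89 to 11.6 (0.11, interval -0.48 to 0.70). The number of mitosis genes at an unadjusted p under 0.05 was 8 without PBBI rat 81, 2 with rats 81, 82 and 83 all left out and 5 with the replicate block, and the median was 0.41 without rat 81.

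DNA replication genes were higher in 23 of 24 tested, against 1015 of 1582 named genes. All of them were higher on the injured side, so the limit given for the mitosis genes holds here too. Of the 24, 4 were higher at an unadjusted p under 0.05, against 116 of the 1582. The list median log2 fold change was 0.40. Mcm3, a subunit of the replicative helicase, was at 7.70 CPM in rat 81, 3.83 in rat 88 and 1.07 to 1.60 in the other PBBI rats, against 0.960 to 1.34 in sham (log2 fold change 1.28, interval 0.24 to 2.33, exact permutation p 0.0801). Mcm5 and Mcm6, other subunits of it, were at 0.627 to 11.2 CPM against 0.539 to 1.92 and at 2.79 to 13.9 against 2.53 to 5.03. Pcna, the polymerase clamp, was highest in rat 83 at 116 CPM and at 53.9 to 75.6 in the other PBBI rats, against 48.4 to 67.3 in sham (log2 fold change 0.33, interval -0.11 to 0.77). As for the mitosis genes, the highest values lay in few PBBI rats. The number of genes at an unadjusted p under 0.05 was 0 without PBBI rat 81, 2 without PBBI rat 88 or sham rats 84, 86 or 94, 0 with the replicate block and 0 with rats 81, 82 and 83 all left out, and the median was 0.18 without rat 81.

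For the division genes the 250 upstream bases are shown for Kif4a, whose groups did not overlap, and for Mki67, the most widely used marker among them. They come from chrX:69761633-69761882 (plus strand) and chr1:199952594-199952843 (minus strand) in GRCr8. Capitals mark the CCAAT box, CCAAT or its reverse complement ATTGG.
Kif4a: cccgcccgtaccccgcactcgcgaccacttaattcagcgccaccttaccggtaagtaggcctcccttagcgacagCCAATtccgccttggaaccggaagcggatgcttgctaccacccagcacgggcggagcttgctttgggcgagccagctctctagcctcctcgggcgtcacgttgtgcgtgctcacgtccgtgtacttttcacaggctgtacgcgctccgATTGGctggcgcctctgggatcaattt
Mki67: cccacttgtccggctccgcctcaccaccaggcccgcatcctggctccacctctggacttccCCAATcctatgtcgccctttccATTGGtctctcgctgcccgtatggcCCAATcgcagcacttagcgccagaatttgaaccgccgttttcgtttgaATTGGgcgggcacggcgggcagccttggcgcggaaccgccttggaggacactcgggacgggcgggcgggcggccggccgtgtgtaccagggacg

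A CCAAT box on either strand was in 27 of the 37 tested mitosis genes that matched a promoter (73%) and in 34.3% of all promoters. The letters TTTGAA, the core of the cell cycle homology region (CHR), were in 19 of the 37 (51.4%) and in 16% of all. The Kif4a window held 2 CCAAT boxes and the Mki67 window 4. These are matches to letters and do not show binding.

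**Figure D2:**
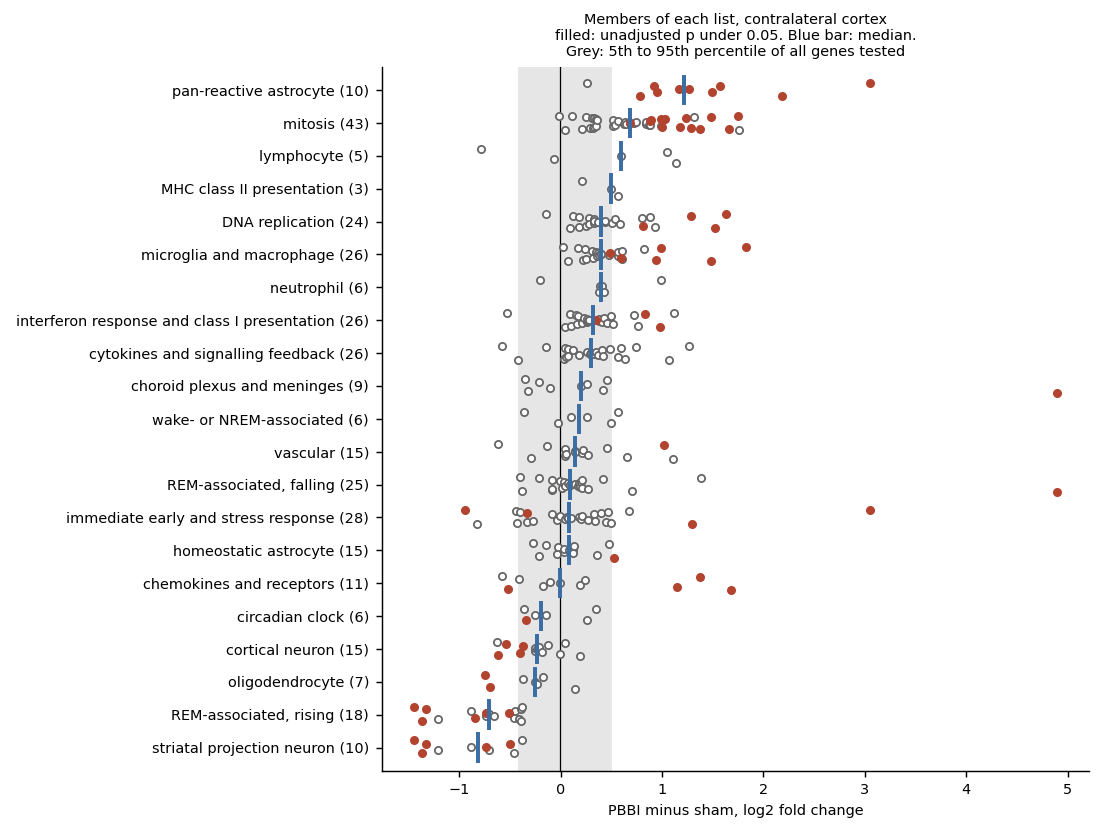
PBBI minus sham log2 fold change of each tested member of 21 gene lists in the contralateral cortex (number tested in brackets), with filled points for an unadjusted p under 0.05, a blue bar at the list median, a black line at the median of all genes tested and a grey band from their 5th to their 95th percentile. The pan-reactive astrocyte median of 1.22 is the highest and the striatal projection neuron median of -0.81 the lowest of these lists.

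Microglial and macrophage genes were higher in 26 of 26 tested, against 1015 of 1582 named genes. All of them except Tmem119 were also higher on the injured side, so the same limit holds for this count. Of the 26, 6 were higher at an unadjusted p under 0.05, against 116 of the 1582. The list median log2 fold change was 0.40. The summed level was 445 to 609 CPM in PBBI and 323 to 505 CPM in sham. C1qc, a chain of complement C1q, was at 71.7 CPM in PBBI rat 88, 63.2 in rat 83, 61.9 in rat 81, 60.9 in rat 96, 52.8 in rat 85 and 50.7 in rat 90, against 31.6 to 56.2 in sham (log2 fold change 0.59, interval 0.20 to 0.98). The PBBI rats lay close together for C1qc, and 4 of them were above the sham range. C1qb, another chain, was at 51.6 to 97.4 CPM against 36.1 to 68.2 (0.49, interval 0.03 to 0.95).

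Msr1, a scavenger receptor, was at 0.886 to 7.80 CPM in PBBI and 0.328 to 1.27 in sham (log2 fold change 1.83, interval 0.56 to 3.10). Cd14, a coreceptor for endotoxin, was at 0.733 to 6.93 CPM against 0.468 to 1.17 (1.48, interval 0.33 to 2.63). Ncf4, a subunit of the phagocyte oxidase, was at 2.17 to 8.40 CPM against 1.61 to 2.29 (0.94, interval 0.19 to 1.70), with 5 of 6 PBBI rats above the sham range. Tmem119, a membrane protein used to mark resident microglia, was at 20.4 to 52.7 CPM against 26.5 to 53.6, and its interval of -0.36 to 0.70 included 0. Lyz2, a lysozyme, was at 212 CPM in rat 85 and 101 to 139 in the other PBBI rats, against 80.6 to 151 in sham (0.22, interval -0.25 to 0.69). The number of microglial genes at an unadjusted p under 0.05 was 3 without PBBI rat 81, 0 with rats 81, 82 and 83 all left out and 1 with the replicate block.

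Not all blood leukocyte genes could be tested. Of 11 neutrophil genes 6 could be tested, 5 were higher, against 1015 of 1582 named genes, and 0 of the 6 had an unadjusted p under 0.05. S100a9, a calcium-binding protein of neutrophils, was at 33.1 CPM in PBBI rat 85, 16.9 in rat 96, 8.27 in rat 81, 2.49 in rat 88, 1.81 in rat 83 and 1.02 in rat 90, while sham rat 94 was at 28.1 against 1.35 to 7.70 in the other sham rats. High values of S100a9 thus occurred in both groups. Olfm4, a granule protein, was at 1.80 to 5.75 CPM against 2.2 to 3.45 (log2 fold change 0.43, interval -0.27 to 1.13). Of 14 lymphocyte genes 5 could be tested, and their summed level was 1.41 to 3.57 CPM in PBBI and 1.82 to 2.55 in sham. Icos, a costimulator of T cells, was at 0.0860 to 0.441 CPM against 0.0540 to 0.281 (1.05, interval -0.05 to 2.16), and Fcrl1, a receptor of B cells, at 0.0981 to 0.693 against 0.281 to 0.948 (-0.78, interval -1.80 to 0.24).

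Interferon response and class I presentation genes were higher in 25 of 26 tested, against 1015 of 1582 named genes. All of them except RT1-T24-2 and XAF1 were also higher on the injured side, so the same limit holds for this count. Of the 26, 3 were higher at an unadjusted p under 0.05, against 116 of the 1582. The list median log2 fold change was 0.32. Ifi27l2b, an interferon-inducible gene, was at 7.28 CPM in PBBI rat 85, 6.67 in rat 96, 6.46 in rat 81, 6.01 in rat 83, 5.41 in rat 88 and 5.14 in rat 90, against 1.78 to 4.89 in sham, with no overlap (log2 fold change 0.98, interval 0.45 to 1.51). The highest value was in rat 85, which had the lowest Gfap of the 6 PBBI rats. Gbp2, an interferon-induced GTPase, was at 5.93 to 25.6 CPM against 5.25 to 11.6 (0.83, interval 0.04 to 1.61). Irf9, a transcription factor that pairs with STAT proteins, was at 11.9 to 16.6 CPM against 8.74 to 13.2 (0.35, interval 0.00 to 0.70). In both genes 4 of 6 PBBI rats were above the sham range. Erap1, an aminopeptidase that trims peptides for class I, was at 17.5 to 30.9 CPM against 15.4 to 24.2 (0.28, interval -0.10 to 0.66). The count at an unadjusted p under 0.05 was 1 without PBBI rats 81, 83 or 88 or sham rats 82 or 86, 7 without PBBI rat 85, 8 without sham rat 94, 1 with the replicate block, 1 with rats 81, 82 and 83 all left out and 10 with PBBI rat 85 and sham rats 91 and 94 all left out.

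Of 7 class II presentation genes 3 could be named and tested, and 0 had an unadjusted p under 0.05. RT1-Da and RT1-Db1, chains of class II molecules, had log2 fold changes of 0.57 (-0.21 to 1.34) and 0.50 (-0.20 to 1.20), and Ifi30, a lysosomal reductase, of 0.21 (-0.33 to 0.76). The RT1 genes are members of a multigene family that may share reads, which makes their values uncertain.

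**Figure D3:**
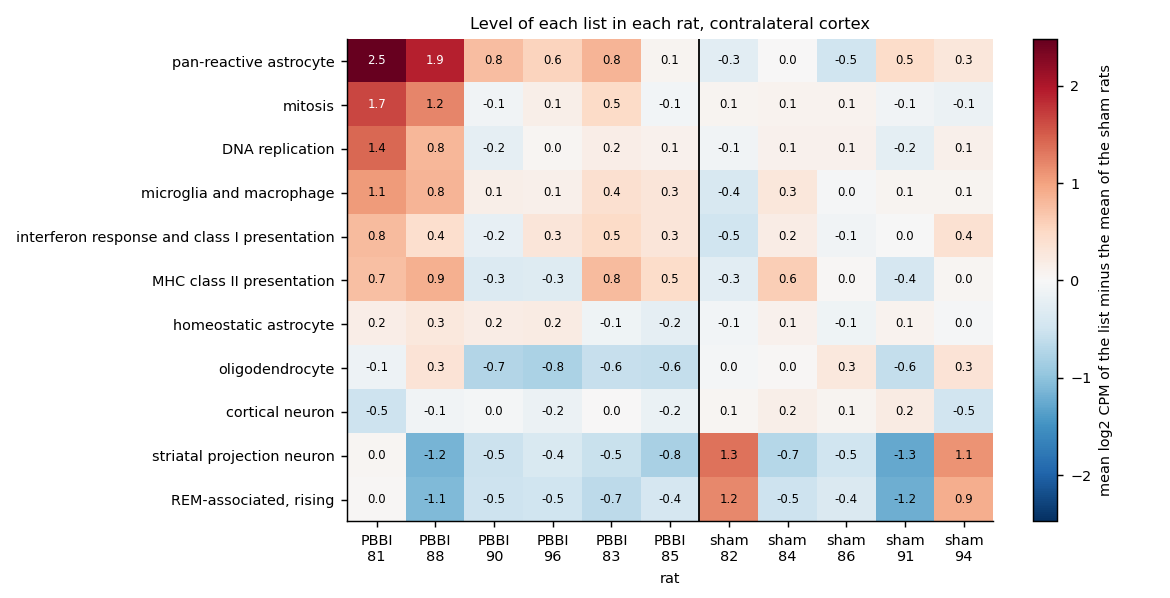
Mean log2 CPM of the tested members of 11 lists in each contralateral library, as the difference from the mean of the 5 sham rats, with PBBI rats to the left and sham rats to the right of the line. Rats 81 and 88 are the highest for the reactive astrocyte, mitosis, DNA replication and microglial lists, and sham rats 82 and 94 are the highest for the striatal list and for the genes listed as rising with REM sleep.

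Cytokine and signalling feedback genes were higher in 23 of 26 tested, against 1015 of 1582 named genes. All of them were higher on the injured side, so the same limit holds for this count. The list median log2 fold change was 0.30, and 0 of the 26 had an unadjusted p under 0.05. Socs3, the feedback inhibitor of STAT3 signalling, was at 7.47 CPM in rat 81, 2.31 in rat 88 and 0.843 to 1.02 in the other PBBI rats, against 0.524 to 1.87 in sham (log2 fold change 1.26, interval -0.06 to 2.58). It was 0.38 without rat 81. Stat3 itself was at 93.3 CPM in PBBI rat 81, 75.6 in rat 90, 75.1 in rat 88, 51.1 in rat 96, 37.6 in rat 83 and 35.0 in rat 85, against 37.2 to 54.1 in sham (log2 fold change 0.49, interval -0.05 to 1.03), so 3 PBBI rats were above the sham range and rat 85 below it. The count at an unadjusted p under 0.05 was 1 without PBBI rat 96 or sham rat 84, 2 without PBBI rats 85 or 90 or sham rat 94, 3 without PBBI rat 83 and 7 with PBBI rat 85 and sham rats 91 and 94 all left out.

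Of 20 chemokines and receptors 11 could be tested and 5 were higher, against 1015 of 1582 named genes. At an unadjusted p under 0.05, 3 were higher and 1 lower, against 116 and 42 of the 1582. Ccl2, which attracts monocytes, was at 6.46 CPM in rat 81 and 0.950 to 2.37 in the other PBBI rats, against 0.571 to 1.41 in sham (log2 fold change 1.38, interval 0.28 to 2.47, exact permutation p 0.0433). Ccl7, a related chemokine, was at 1.80 CPM in rat 81 and 0.155 to 0.708 in the others, against 0.126 to 0.327 (1.68, interval 0.35 to 3.01, exact permutation p 0.0887). Without rat 81 these log2 fold changes were 0.73 and 1.00, and on the injured side they were 6.96 and 7.57. The count of higher genes was 1 without PBBI rat 81, 0 with the replicate block and 0 with rats 81, 82 and 83 all left out.

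The chemokine on the low side was Cx3cl1, a neuronal chemokine whose receptor is on microglia. It was at 252 CPM in PBBI rat 90, 188 in rat 83, 187 in rat 96, 186 in rat 81, 184 in rat 88 and 154 in rat 85. In sham it was at 322 CPM in sham rat 82, 287 in rat 84, 279 in rat 91, 256 in rat 86 and 233 in rat 94. Thus 5 of 6 PBBI rats lay below all sham rats, and the log2 fold change was -0.52 (-0.85 to -0.19). On the injured side it was -0.78. Without sham rat 94 the number of lower genes in the list was 2.

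Sprr1a, a small proline-rich protein of injured neurons, was named for the injured side, where its log2 fold change was 5.87. Contralaterally it was at 0.222 to 1.88 CPM in PBBI against 0.206 to 0.864 in sham (log2 fold change 0.63, interval -0.52 to 1.78), so the ranges overlapped.

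Immediate early and stress genes lay on both sides. Of 28 tested identifiers (27 genes, Mt1 having 2 identifiers that may share reads) 17 were higher, against 1015 of 1582 named genes. At an unadjusted p under 0.05, 2 were higher and 2 lower, against 116 and 42 of the 1582. The list median log2 fold change was 0.09. Hmox1, heme oxygenase, was at 5.75 to 29.2 CPM in PBBI against 3.72 to 7.94 in sham (log2 fold change 1.30, interval 0.36 to 2.24), and Hspb1, described above, was the other on the high side. Hspd1, a mitochondrial chaperonin, was at 121 to 168 CPM against 107 to 159 (0.10, interval -0.22 to 0.42).

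On the low side, Fosb, an AP-1 subunit induced by neuronal activity, was at 8.05 CPM in PBBI rat 90, 6.77 in rat 83, 4.59 in rat 88, 4.04 in rat 81, 3.43 in rat 96 and 2.99 in rat 85. In sham it was at 12.8 CPM in sham rat 84, 11.5 in rat 86, 11.4 in rat 82, 6.94 in rat 91 and 5.08 in rat 94. The ranges overlapped, with 4 PBBI rats below the sham range, and the log2 fold change was -0.94 (-1.61 to -0.27). Jun, another AP-1 subunit, was at 50.9 to 67.3 CPM in PBBI and 63.4 to 86.8 in sham (-0.33, interval -0.63 to -0.03). On the injured side the log2 fold changes of Fosb and Jun were 2.26 and 1.19. Neither passed the adjusted threshold there (edgeR adjusted p 0.172 and 0.0816). Fosb had 199 and 138 counts on that side in PBBI rats 83 and 96, under the 271 to 627 of the sham rats. The estimates thus had opposite signs in the hemispheres, and that difference was not tested. The count of lower genes in the list was 1 without PBBI rats 81, 83, 88 or 96 or sham rats 84, 86 or 94, 0 with the replicate block and 4 with PBBI rat 85 and sham rats 91 and 94 all left out. The count of higher genes was 4 without sham rat 94, 0 with the replicate block, 1 with rats 81, 82 and 83 all left out and 6 with PBBI rat 85 and sham rats 91 and 94 all left out.

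**Figure D4:**
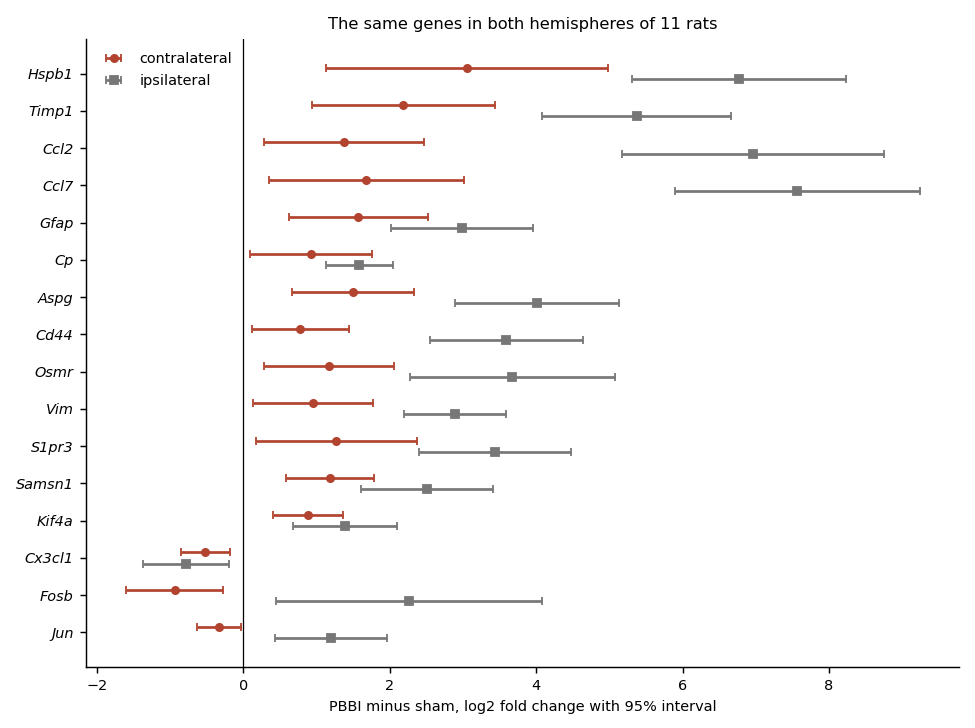
PBBI minus sham log2 fold change with its 95% interval for 16 genes in the contralateral (circles) and ipsilateral (squares) cortex of the same 11 rats, each hemisphere from its own fit. Fosb and Jun lie below 0 contralaterally and above 0 ipsilaterally, and the contralateral estimates of Hspb1, Timp1, Ccl2 and Ccl7 are smaller than the ipsilateral ones.

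The 6 named genes with the smallest p on the high side were Cd99l2, Kng1l1, Samsn1, RGD1561662, Kif4a and Ifi27l2b. Samsn1, an adaptor protein of blood and immune cells, was at 1.28 CPM in PBBI rat 96, 1.24 in rat 81, 1.14 in rat 83, 0.860 in rat 85, 0.746 in rat 90 and 0.738 in rat 88. In sham it was at 0.539 CPM in sham rat 91, 0.490 in rat 84, 0.433 in rat 86, 0.378 in rat 82 and 0.351 in rat 94. All PBBI rats lay above all sham rats, and the log2 fold change of 1.18 (0.58 to 1.79) stayed between 1.10 and 1.28 when any 1 rat was left out. RGD1561662, a locus with no gene name, was at 0.424 to 0.997 CPM against 0.199 to 0.412, also with no overlap (log2 fold change 1.47, interval 0.71 to 2.22).

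Kng1l1, a kininogen gene with close paralogs that can share reads, had 73, 22, 24, 10, 10 and 13 counts in PBBI rats 81, 83, 85, 88, 90 and 96. In sham rats 82, 84, 86, 91 and 94 it had 0, 0, 0, 2 and 2. Cd99l2, a gene related to the adhesion protein CD99, had 24, 26, 30, 38, 72 and 0 counts in the PBBI rats in the same order, and 1 count in sham rat 82 and 0 in the other sham rats. It was thus counted in 5 of 6 PBBI rats. On the injured side Cd99l2 had 0 counts in PBBI rats 85 and 96 and in every sham rat, and 20 to 66 in the other 4 PBBI rats. No fold is given for these 2 genes, since their sham counts lie at or under a floor of 3 counts per library, which covers counting error only.

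On the low side the 6 named genes with the smallest p were AABR07064061.1, Lpcat4, Tgm3, Cx3cl1, Hrc and Fxyd7. Lpcat4, an enzyme of phospholipid remodelling, was at 43.5 CPM in PBBI rat 90 and 35.3 to 38.0 in the others, against 43.3 to 58.9 in sham (log2 fold change -0.46, interval -0.75 to -0.18). Fxyd7, a regulator of the neuronal sodium pump, was at 29.2 to 49.3 CPM against 40.7 to 58.0 (-0.51, interval -0.87 to -0.15). In both genes 5 of the 6 PBBI rats lay below the sham range. Hrc, a calcium-binding protein of the endoplasmic reticulum, was at 0.151 to 0.458 CPM against 0.349 to 0.776 (-1.17, interval -1.93 to -0.42), and Tgm3, a transglutaminase, at 0.0678 to 0.254 against 0.187 to 0.614 (-1.53, interval -2.49 to -0.57). AABR07064061.1, which has no gene name, was at 1.12 to 1.86 CPM in PBBI. In sham it was at 10.1 CPM in sham rat 91, 6.55 in rat 82, 4.21 in rat 94, 1.81 in rat 86 and 1.57 in rat 84, so 3 sham rats carried its difference.

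Among identifiers with no name, ENSRNOG00000021536 was at 2.86 to 4.33 CPM in PBBI and 5.07 to 6.41 in sham (log2 fold change -0.71, interval -1.10 to -0.34), with no overlap. ENSRNOG00000020259 was at 0.360 to 0.557 CPM against 0.703 to 1.71 (-1.18, interval -1.82 to -0.55), also with no overlap. On the high side ENSRNOG00000010478 was at 17.8 CPM in rat 81 and 0.597 to 6.13 in the other PBBI rats, against 0.0360 to 0.840 in sham, and ENSRNOG00000048924 was at 9.80 to 30.4 CPM against 6.88 to 11.9.

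Neuronal and oligodendrocyte markers were mostly on the low side. Of 15 tested cortical neuron genes 13 were lower, against 567 of 1582 named genes. Of the 15, 4 were lower at an unadjusted p under 0.05, against 42 of the 1582. The list median log2 fold change was -0.24. The summed level was 2340 to 3940 CPM in PBBI and 2911 to 4518 in sham. Cckbr, a cholecystokinin receptor, was at 5.58 CPM in rat 81 and 11.2 to 13.1 in the other PBBI rats, against 12.6 to 19.3 in sham (log2 fold change -0.61, interval -1.08 to -0.15). Camk4, a calcium-dependent kinase, was at 11.9 to 18.8 CPM against 17.1 to 23.6 (-0.38, interval -0.72 to -0.03), and Kcnc1, a potassium channel of fast-spiking neurons, at 31.4 to 56.8 against 42.8 to 60.9 (-0.40, interval -0.78 to -0.02). In both of these genes 5 of 6 PBBI rats lay below all sham rats. Ndnf, a marker of superficial interneurons, was at 2.19 to 3.85 CPM against 3.71 to 6.55. Nrsn1, a vesicle protein of neurons, was at 382 to 801 CPM against 445 to 914 (-0.25, interval -0.74 to 0.25). The count of lower genes was 1 without PBBI rats 88 or 90 or sham rat 84, 2 without sham rat 86, 2 with the replicate block and 8 with PBBI rat 85 and sham rats 91 and 94 all left out.

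Mal, a proteolipid of myelin, was at 205 to 446 CPM in PBBI with a median of 305. In sham it was at 740.1 CPM in sham rat 94, 664 in rat 86, 485 in rat 84, 441 in rat 82 and 308 in rat 91. The ranges overlapped, mostly through sham rat 91 (log2 fold change -0.75, interval -1.28 to -0.21). Opalin, a membrane protein of mature oligodendrocytes, was at 65.5 to 167 CPM against 131 to 214 (-0.69, interval -1.23 to -0.16). They were the 2 of 7 tested oligodendrocyte genes with an unadjusted p under 0.05, with a list median of -0.25, and the count was 1 with the replicate block. Of the 7, 6 were lower, against 567 of 1582 named genes, of which 42 were lower at that p.

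Genes of striatal projection neurons, cells that lie beneath the cortex and not in it, had the lowest median of the lists. All 10 tested were lower in PBBI, against 567 of 1582 named genes. Of the 10, 5 were lower at an unadjusted p under 0.05, against 42 of the 1582. The list median log2 fold change was -0.81. The summed level was 649 CPM in sham rat 82 and 586 in sham rat 94, against 110 to 198 in the other 3 sham rats and 122 to 295 in PBBI. The PBBI rats therefore lay within the range of sham. Adora2a, an adenosine receptor, was at 147 CPM in sham rat 94, 122 in rat 82, 25.6 in rat 86, 15.1 in rat 84 and 9.97 in rat 91. In PBBI it was at 11.8 to 30.1 CPM, with a median of 26.4 against 25.6 in sham. Gpr6, an orphan receptor of striatal neurons, was at 28.9 CPM in both sham rat 82 and sham rat 94, 3.06 to 7.76 in the other sham rats and 2.77 to 9.02 in PBBI, with an exact permutation p of 0.229.

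Chrm4, the muscarinic M4 receptor and the member with the smallest p, was at 30.5 CPM in sham rat 82, 27.2 in rat 86, 20.99 in rat 84, 20.5 in rat 94 and 15.5 in rat 91. In PBBI it was at 12.6 to 19.2 CPM (log2 fold change -0.49, interval -0.90 to -0.09). Pcp4l1, a calmodulin-binding peptide, was at 102 CPM in PBBI rat 81 and 31.6 to 38.6 in the other PBBI rats, against 22.5 to 121 in sham (-0.38, interval -1.28 to 0.52), so rat 81 lay within the sham range. The count of lower striatal genes was 0 without sham rat 82, 1 without sham rat 94, 2 without PBBI rat 88, 3 without PBBI rats 83, 85 or 90, 8 without sham rat 91, 0 with the replicate block, 0 with rats 81, 82 and 83 all left out and 3 with PBBI rat 85 and sham rats 91 and 94 all left out. The median was -0.51 without sham rat 82 and -0.55 without sham rat 94.

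The genes that the study associated with sleep were taken as the lists it gives. They were chosen on these same libraries, so their values here are not independent of that choice. All 18 tested genes listed as rising with REM sleep were lower in PBBI, against 567 of 1582 named genes. Of the 18, 6 were lower at an unadjusted p under 0.05, against 42 of the 1582. The list median was -0.71. Adora2a, Rgs9, Tac1, Gpr6, Syndig1l, Rarb, Rasgrp2, Slc35d3 and Pcp4l1 stand on this list and on the striatal one. The list was also highest in sham rats 82 and 94, at 769 and 693 CPM summed, against 140.3 to 256 in the other sham rats and 158 to 369 in PBBI. The count of lower genes was 0 without sham rats 82 or 94, 1 without PBBI rat 88, 2 without PBBI rats 83 or 90, 3 without PBBI rat 96, 14 without sham rat 91, 0 with the replicate block and 0 with rats 81, 82 and 83 all left out.

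The 25 tested genes listed as falling with REM sleep had a median of 0.09, with 18 higher, against 1015 of 1582 named genes. Of the 25, 1 was higher at an unadjusted p under 0.05, against 116 of the 1582. The summed level of the list was 422 CPM in sham rat 91, 74.5 to 135 in the other sham rats and 88.8 to 338 in PBBI. The count of higher genes was 0 without PBBI rat 88, 2 without PBBI rat 96, 14 without sham rat 91 and 15 with PBBI rat 85 and sham rats 91 and 94 all left out, and the median was 0.94 without sham rat 91. Sham rat 91 is the library with the highest ratio of long to short genes, and with that ratio as a covariate the median was 0.20, with 2 higher genes at an unadjusted p under 0.05. Txnip, an inhibitor of thioredoxin, was at 24.9 to 53.5 CPM against 24.6 to 61.2 (log2 fold change -0.01, interval -0.52 to 0.51).

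Kl, klotho, a gene of the choroid plexus, was the member with the smallest p. It was at 39.7 CPM in PBBI rat 88 and 0.127 to 0.572 in the other PBBI rats, against 0.108 to 0.360 in sham. Its log2 fold change was 4.90 (1.51 to 8.29, exact permutation p 0.236) with all rats and 0.58 without rat 88. Of the 9 choroid plexus and meningeal genes tested, Enpp2, autotaxin, was at 607 CPM in rat 88, 50.7 to 111 in the other PBBI rats and 82.7 to 150.3 in sham. Ptgds, a prostaglandin synthase, was not highest in rat 88, at 413 CPM against 286 to 653 in the other PBBI rats and 369 to 1037 in sham. The part of such tissue in the other values of rat 88 was not tested.

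Of the 6 genes listed for wake or NREM sleep 0 had an unadjusted p under 0.05. AABR07052730.3 had a log2 fold change of -0.36 (-1.18 to 0.46), Srgn, a granule proteoglycan, of -0.03 (-0.49 to 0.44), Slfn2, a schlafen family gene, of 0.10 (-0.54 to 0.73), and Ifit3, an interferon-induced gene, of 0.26 (-0.68 to 1.20). RT1-Da and RT1-Db1, given above, are the other two.

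Of 16 circadian clock genes 6 could be named and tested. Against 42 of 1582 named genes, 1 of the 6 was lower at an unadjusted p under 0.05. That gene was Arntl, the BMAL1 subunit of the clock activator. It was at 27.9 to 37.4 CPM in PBBI and 33.6 to 49.9 in sham, with 4 of 6 PBBI rats below the sham range (log2 fold change -0.34, interval -0.65 to -0.04). The count was 0 without PBBI rats 81 or 96 or sham rats 82, 84 or 86, 2 without PBBI rat 88, 0 with the replicate block and 0 with rats 81, 82 and 83 all left out. Usp2, a clock-controlled protease, was at 10.0 to 19.6 CPM against 18.1 to 22.4 (-0.36, interval -0.74 to 0.03). Npas2, a partner of BMAL1, was at 93.8 CPM in rat 88 and 59.5 to 70.7 in the other PBBI rats, against 60.9 to 91.9 (-0.14, interval -0.48 to 0.19). Arntl2, Vipr2 and Timeless, a paralog of BMAL1, a receptor for VIP and a replication fork protein, had log2 fold changes of 0.35, -0.25 and 0.26, each with an interval that included 0.

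**Figure D5:**
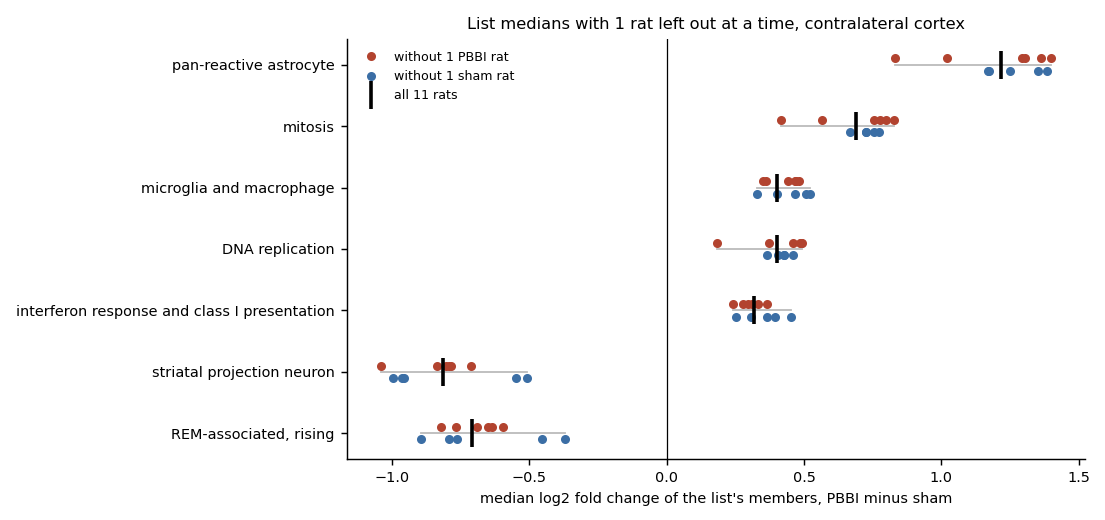
Median log2 fold change of the members of 7 lists in the contralateral cortex with all 11 rats (black bar) and with 1 PBBI rat (red) or 1 sham rat (blue) left out. The pan-reactive astrocyte median moves from 1.22 to 0.83 without rat 81, and the striatal median from -0.81 to -0.51 without sham rat 82.

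Vascular genes had a median log2 fold change of 0.14, with 12 of 15 higher, against 1015 of 1582 named genes. Against 116 of the 1582, 1 of the 15 was higher at an unadjusted p under 0.05. That gene was Gpr182, an endothelial receptor, at 0.322 to 1.05 CPM against 0.108 to 0.474 (log2 fold change 1.02, interval 0.05 to 1.99, exact permutation p 0.0628). Slc2a1, the glucose transporter of the blood-brain barrier, was at 71.2 to 119 CPM against 63.8 to 106 (0.04, interval -0.33 to 0.41). The count was 0 without PBBI rats 81 or 83 or sham rats 82 or 86, 2 without PBBI rat 90, 0 with the replicate block and 0 with rats 81, 82 and 83 all left out.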

How the data were processed

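RNA of the cortex of both hemispheres was sequenced from 11 rats, and the 11 contralateral libraries are compared here. The authors deposited a table of raw counts per gene with no normalization. Per the labels and the methods of the study, libraries were stranded, paired-end and depleted of ribosomal RNA, reads were aligned with STAR 2.4.2a, and counts were made with featureCounts 1.4.3-p1 on the Ensembl annotation of Rnor 6.0. The strand setting of the counting is not given in the sources used here, so overlapping and antisense genes may share reads. The study also gives tables of its own comparisons, and only their pairs of identifier and gene name were used (1818 identifiers, of which 1582 were tested). Groups follow the labels, and 0 count columns belonged to other series.

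Counts of 32545 genes were filtered with filterByExpr, scaled by TMM and tested in R 4.3.3 with edgeR 4.0.16 (quasi-likelihood F test), PBBI against sham, over the contralateral libraries alone, with Benjamini-Hochberg adjustment over the 15907 genes tested and a threshold of 0.05. Log2 values used a prior count of 2. Intervals are 95% intervals from the fitted log2 fold change and a standard error taken from its F value. Single genes were also compared by a two-sided exact permutation test over 462 splits of the rats, whose smallest possible p is 0.00216. Ipsilateral values come from a separate fit of the same form on the other hemisphere.

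Genes named by rule were the 6 named genes with the smallest p in each direction, the member of each list with the smallest p and that with the highest mean log2 CPM (not corrected for length, so not a rank of levels), at most 2 identifiers without a name in each direction, the clock and the wake or NREM genes, and genes the study describes on the injured side, of which 1 is not reported here. Other list members were chosen as examples after their values were seen. Members and lists were chosen with earlier results of these data known. The gene lists hold the genes that could be named, and not all genes of a pathway.

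Alternatives were other scalings and filters, DESeq2 1.42.0, limma 3.58.1 (voom), a fit of all 22 samples, 1 rat left out, rats 81, 82 and 83 left out, and the rat as a random block over both hemispheres. Hemispheres of a rat share its number because they come from 1 animal, and their consensus correlation was 0.548. Within the contralateral hemisphere each rat gives 1 sample, so no PBBI rat pairs with a sham rat. The methods describe surgery on 4 rats per week, but the week of a rat was not used. The tests were checked on simulated data. Promoter sequences are those of RefSeq (GRCr8), 250 bases before the start, and no coordinates of the count table were used.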

Additional observations from a re-analysis of the deposited data

Results flagged for a closer look

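In groups of 5 or 6 rats a single rat was called far from the others when its gap to the nearest one was a large part of the whole range (Dixon's 95% limit). For normally distributed values chance alone gives this in about 1 of 20 groups. The CPM were not log-transformed for this rule and can be skewed, so that rate may not hold. Both groups were searched in 62 genes, and 22 values met the limit. Some genes, such as Kl, were named for a small p that a single far value can affect. PBBI rat 81 stood apart most often. There Hspb1 was at 99.0 CPM against 2.17 to 36.8 in the other PBBI rats, Timp1 at 68.0 against 5.61 to 20.4 and Socs3 at 7.47 against 0.843 to 2.31. The chemokines Ccl2 and Ccl7 were at 6.46 and 1.80 CPM in rat 81, against 0.950 to 2.37 and 0.155 to 0.708 in the others. Kng1l1 was at 1.19 CPM against 0.151 to 0.413, ENSRNOG00000010478 at 17.8 against 0.597 to 6.13, and the striatal gene Pcp4l1 at 102 against 31.6 to 38.6, where the sham rats were at 22.5 to 121. Cckbr was low in rat 81, at 5.58 CPM against 11.2 to 13.1.

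The other PBBI rats stood apart in fewer genes. In rat 88 Kl was at 39.7 CPM against 0.127 to 0.572, and Npas2 at 93.8 against 59.5 to 70.7. In rat 85 Lyz2 was at 212 CPM against 101 to 139, and Slc14a1 was low at 65.0 against 104 to 122. In rat 90 Cx3cl1 was at 252 CPM against 154 to 188 and Lpcat4 at 43.5 against 35.3 to 38.0, both inside the sham range. In rat 83 Pcna was at 116 CPM against 53.9 to 75.6.

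Among sham rats, rat 94 had S100a9 at 28.1 CPM against 1.35 to 7.70, Vipr2 at 5.34 against 2.49 to 2.95, and ENSRNOG00000020259 at 1.71 against 0.703 to 0.954. Sham rat 84 had Ptgds at 1037 CPM against 369 to 538, and sham rat 91 had RGD1561662 at 0.412 against 0.199 to 0.258. Cd99l2 was at 0.0180 CPM in sham rat 82, which is 1 count, and at 0 in the other sham rats.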

How the results depend on the processing

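The number of genes called was 0 in each other setting except DESeq2 without a prior, which called 3 (Cd99l2, Kng1l1 and ENSRNOG00000021536), and limma voom with sample weights, which called 1 (Kng1l1). With 1 rat left out the number called lay between 0 and 1, the 1 being Cd99l2 when PBBI rat 96 was left out. The number of genes at an unadjusted p under 0.05, 366 with all rats, was 142 in the fit with the rat as a replicate block over both hemispheres. It was 636 with no filter, 594 with DESeq2 and 557 with DESeq2 with a prior. More genes were tested in these 3 fits (22376, 22293 and 22293, against 15907). The number was 2119 with sample weights and 250 without rats 81, 82 and 83. With 1 rat left out it was 274 (sham rat 86) to 1043 (sham rat 91). With 2 alternatives chosen after seeing the data this number was 543 (the long to short ratio as a covariate) and 2312 (PBBI rat 85 and sham rats 91 and 94 left out). The pan-reactive astrocyte median was 0.50 under the DESeq2 prior, which shrinks estimates. Upper quartile scaling moved the higher and lower counts from 204 and 162 to 271 and 115 and the median of all genes from -0.01 to 0.04. Of the alternative values computed for named genes, 1416 kept their sign and side of the threshold, 5 passed it and 43 had the other sign, all in genes whose interval with all rats included 0. With upper quartile scaling, the log2 fold changes were Txnip 0.042 and Srgn 0.015. With a minimum of 10 counts in each sample, the log2 fold change was Txnip 0.009. With limma voom, the log2 fold change was Txnip 0.024. With limma voom with sample weights, the log2 fold changes were RT1-Da -0.20, Ifi30 -0.013, Txnip 0.069, Slc2a1 -0.014, Ifit3 -0.45, RT1-Db1 -0.12 and Slfn2 -0.27. With the replicate block, the log2 fold change was Txnip 0.025. With rats 81, 82 and 83 left out, the log2 fold changes were Sparcl1 -0.036, Slc2a1 -0.008, Ifit3 -0.054 and Slfn2 -0.12. With the long to short ratio as a covariate, the log2 fold change was Srgn 0.049. With PBBI rat 85 and sham rats 91 and 94 left out, the log2 fold changes were Incenp -0.047, Txnip 0.36, Lyz2 -0.016, Vipr2 0.14, Ifit3 -0.23 and Slfn2 -0.077. With 1 rat left out the ranges of the genes whose sign turned were Incenp -0.06 to 0.30, Slc2a1 -0.042 to 0.12, Txnip -0.13 to 0.24, S100a9 -0.42 to 1.73, Slfn2 -0.071 to 0.32, Srgn -0.14 to 0.12, Sparcl1 -0.042 to 0.16, Pcp4l1 -0.79 to 0.048 and Ptgds -0.46 to 0.024. The cause was not tested. With at least 48658467 counts per library, depth limited the genes near 3 counts.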

Other observations

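Some members of the lists that were not described above also differed between rats. Tagln, a protein of smooth muscle, was at 161 CPM in PBBI rat 88 and 12.8 to 42.4 in the other PBBI rats, against 10.6 to 34.0 in sham (log2 fold change 1.11, interval -0.20 to 2.42). Igf2, a growth factor made in meninges and choroid plexus, was at 139 CPM in rat 88 and 14.4 to 39.9 in the other PBBI rats, against 38.0 to 88.3 in sham (-0.21, interval -1.21 to 0.80). Both were thus highest in the rat that was also highest for Kl and Enpp2. Cd34, an endothelial sialomucin, was at 8.71 to 32.5 CPM in PBBI and 23.1 to 40.0 in sham (-0.61, interval -1.27 to 0.04), with 4 of 6 PBBI rats below the sham range. Tf, transferrin, was at 203 to 950.4 CPM against 239.7 to 485 (0.14, interval -0.73 to 1.01), and it was the oligodendrocyte gene with a higher estimate in PBBI.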
